A study of Mus musculus with 6 samples.

Results

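Interferon-stimulated genes are transcripts that cells switch on when they sense interferon, and 43 such mouse genes were followed here in bone marrow 6 h after erythropoietin. The 43 are known interferon targets, chosen with earlier results of these data known. Each was read from the brightest probe whose accession matched its RefSeq symbol. A matched probe existed for 40 of them and not for Mx1, Mx2 and Dtx3l. Ifit2, Ifi44 and Oas1g were too dim to test, which left 37 members among the 14861 genes tested. Probes without a RefSeq symbol entered that total under their own accession. All 37 were flagged as well above background on all 6 arrays. Of the 3 dim members, Ifit2 was flagged so on 2 control arrays and no rHuEPO array, and the other 2 on none.

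Total RNA of femoral bone marrow cells was measured on 1-colour Agilent arrays, 1 array per sample. Every sample came from male ISAM mice of 10 weeks on a strain given as Mixed, with the genotype Epo-/-::3.3K-Epo3'-Tg458, an Epo knockout that carries an Epo transgene. In this model the transgene is known to supply erythropoietin in the fetal liver and to leave adults short of it and anemic. The control arm shares this genotype, so every value describes marrow that lacks the endogenous Epo gene. Recombinant human erythropoietin (rHuEPO, 3000 U/kg, intraperitoneal, 6 h) had been given in 3 samples, and the 3 controls were 1 untreated sample and 2 samples taken 6 h after phosphate-buffered saline (PBS).

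Type I interferons bind the receptor pair IFNAR1 and IFNAR2, whose kinases TYK2 and JAK1 switch on transcription factors by phosphorylation. STAT2 and IRF9 are subunits of the resulting complex ISGF3, which binds interferon-stimulated response elements (ISREs) in target promoters. Interferon gamma acts mainly at gamma-activated sites (GAS). The products of the target genes sense viral RNA and DNA, block viral replication and feed back on the pathway, and in marrow interferon is known to act on hematopoietic stem cells and on red cell production.

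The promoters below are shown because they belong to the 4 members with the smallest p-values that carry an ISRE core in the RefSeq window, taken as 250 bases before to 50 bases after the gene start (build GRCm38.p6). The core searched was GAAA, any 2 bases, then GAAA, on either strand, and overlapping matches were counted separately. Capitals mark the matches, and each sequence is given 5′ to 3′ on the gene's own strand. Apol9b lies on the plus strand at chr15:77728822-77729121, and the minus strand carries Isg15 at chr4:156200769-156201068, Irgm1 at chr11:48871371-48871670 and Oas3 at chr5:120777610-120777909.
Apol9b: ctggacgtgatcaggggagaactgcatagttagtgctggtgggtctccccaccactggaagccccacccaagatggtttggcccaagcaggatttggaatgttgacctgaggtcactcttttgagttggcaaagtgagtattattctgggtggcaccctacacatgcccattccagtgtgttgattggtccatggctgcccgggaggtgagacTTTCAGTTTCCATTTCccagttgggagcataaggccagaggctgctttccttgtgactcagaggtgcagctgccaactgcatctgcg
Isg15: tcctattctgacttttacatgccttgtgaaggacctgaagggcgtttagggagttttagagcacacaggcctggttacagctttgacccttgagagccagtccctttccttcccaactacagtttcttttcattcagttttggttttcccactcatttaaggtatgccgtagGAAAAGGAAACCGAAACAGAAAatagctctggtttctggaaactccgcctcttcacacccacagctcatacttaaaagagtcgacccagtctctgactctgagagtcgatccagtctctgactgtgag
Irgm1: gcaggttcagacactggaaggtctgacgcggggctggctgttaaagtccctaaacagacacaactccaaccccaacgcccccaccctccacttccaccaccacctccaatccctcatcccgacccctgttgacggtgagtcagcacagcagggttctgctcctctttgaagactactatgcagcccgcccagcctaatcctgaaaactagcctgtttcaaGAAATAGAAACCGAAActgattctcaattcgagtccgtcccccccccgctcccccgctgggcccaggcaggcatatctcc
Oas3: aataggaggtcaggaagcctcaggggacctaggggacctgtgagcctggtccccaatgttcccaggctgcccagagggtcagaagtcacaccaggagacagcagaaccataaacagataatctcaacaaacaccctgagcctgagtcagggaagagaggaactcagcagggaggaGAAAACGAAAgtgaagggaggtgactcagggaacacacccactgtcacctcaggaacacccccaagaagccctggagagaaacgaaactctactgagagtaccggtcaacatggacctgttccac
The first match began 37 bases upstream of the start in Apol9b, 78 bases upstream in Isg15, 30 bases upstream in Irgm1 and 75 bases upstream in Oas3. Isg15 held 3 overlapping matches, Apol9b and Irgm1 held 2 each and Oas3 held 1. Of the 43 members, 33 had a window in the table and 19 of these (57.6%) held the ISRE core, against 3.94% of 17491 protein-coding genes. The GAS core TTCNNNGAA, which reads the same on both strands, was found in 8 of 33 members (24.2%), against 8.92% of the coding genes. A match describes letters in a window and is not a shown binding site.

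Levels are log2 of the background-subtracted signal minus the array's 75th percentile, so a level of 0 equals that percentile and a difference of 1 is a doubling. On the rHuEPO arrays 46.2% to 46.6% of gene spots were well above background, against 48.6% to 50.5% on the controls. Negative control spots had a median signal of 4.73 to 5.51 on the rHuEPO arrays, against 3.74 to 4.03 on the controls. Slide 1 held rHuEPO replicate 1 and the untreated sample, and slide 2 held the other 4 arrays. As a check of the tissue, all 12 listed erythroid markers were bright enough to test. So were 10 of 11 neutrophil and 10 of 11 B-lineage markers, with 1 of each list lacking a probe. The B-lineage markers set PBS replicate 1 apart, with a median deviation of -1.40 there, against 0.94 in PBS replicate 2 and 0.70 in the untreated sample. Because the labels number samples but do not name separate animals, the p-values reflect the spread among these 6 samples alone, and the number of arrays limits precision. In whole marrow, fewer cells of a type and less RNA per cell cannot be told apart.

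Most members lay higher after rHuEPO, led by Apol9b, Isg15, Ifit1, Usp18 and Irgm1, although no single member passed the test across all genes. The rHuEPO minus control difference was above 0 for 33 of the 37 tested members, against 47.7% of all genes, and below 0 for 4 members, against 52.3%. Limma with Benjamini-Hochberg adjustment over 14861 genes called 0 members at an adjusted p under 0.05. In the same fit 10 genes (0.0673%) were called higher, none of them a member, and 0 (0%) lower. At an unadjusted p under 0.05, 12 members lay higher, against 2.49% of all genes, and 0 lay lower, against 2.48%. For 14 members the rHuEPO arrays all lay above the 3 control arrays, against 5.07% of all genes, and for 0 members below, against 5.32%. The median difference was 0.43 over the members and -0.01 over all genes. The list was chosen with earlier results of these data known, so these shares describe the list and do not test it.

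**Figure D1:**
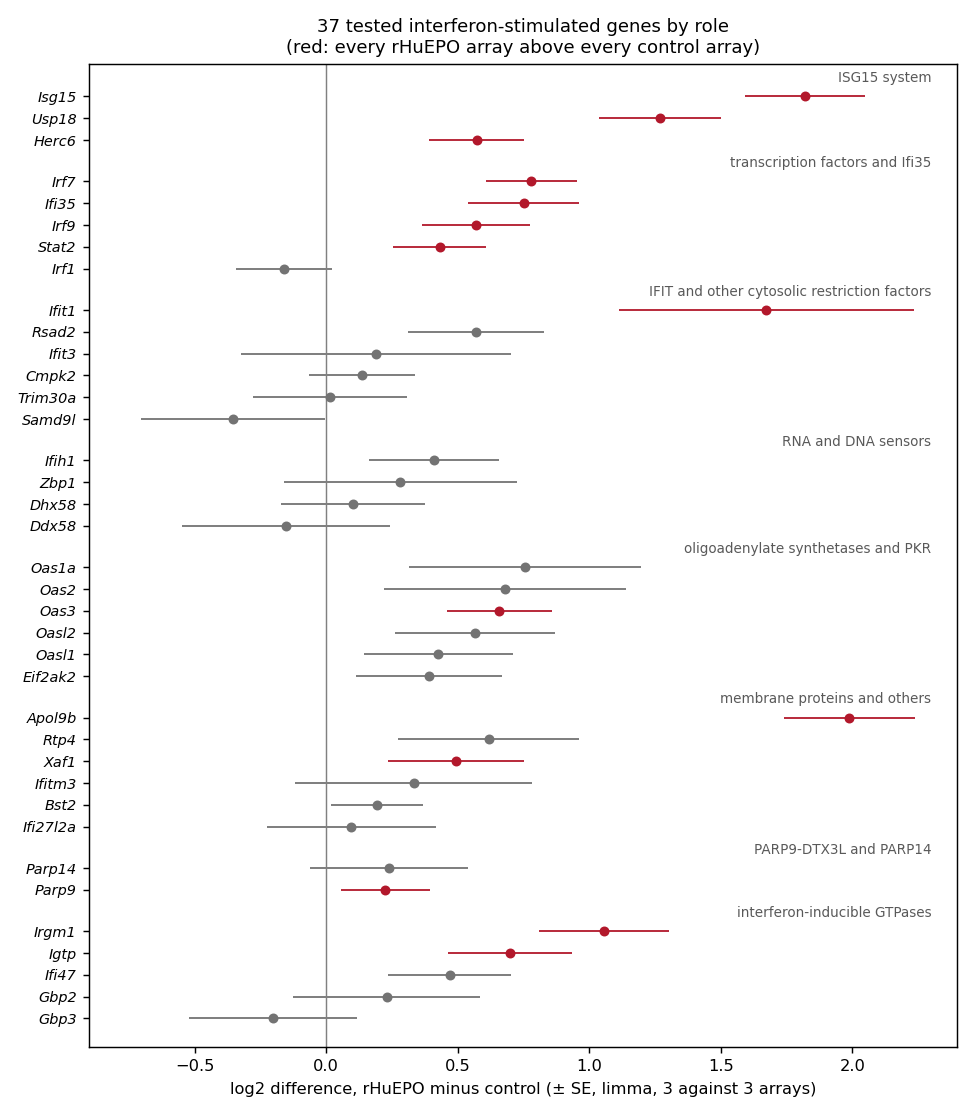
Each point is the log2 difference, rHuEPO minus control, of 1 tested interferon-stimulated gene, and the line is its SE from limma (3 against 3 arrays). The genes run down the page by role, and red marks the 14 members whose rHuEPO arrays all lay above all control arrays. Points lie right of 0 for 33 of 37 members.

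The members concerned with the ubiquitin-like modifier ISG15 stood highest as a role, with a median difference of 1.27 over 3 genes. Isg15 encodes the modifier, which is conjugated to proteins made during infection. Its level was 5.88, 6.32 and 6.22 in rHuEPO replicates 1, 2 and 3, against 3.95 and 4.53 in PBS replicates 1 and 2 and 4.49 in the untreated sample. All 3 rHuEPO arrays lay above all 3 controls, and the lowest of them exceeded the highest control by more than the whole spread of the controls. The difference was 1.82 ± 0.23 (SE, 3 against 3 arrays), a 3.53-fold difference (limma adjusted p = 0.0676). Its promoter, printed above, held the most ISRE cores of the 4 shown.

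Usp18 encodes the protease that removes ISG15 from proteins and also damps the type I interferon receptor. The Usp18 level was 2.20, 2.86 and 2.12 in rHuEPO replicates 1, 2 and 3, against 1.02 and 1.17 in PBS replicates 1 and 2 and 1.19 in the untreated sample. The arms did not overlap, the controls lay close together, and rHuEPO replicate 2 was the highest array. The difference was 1.27 ± 0.23 (SE, 3 against 3 arrays; limma adjusted p = 0.318), with 1.02 on slide 1 and 1.40 on slide 2. Herc6, the main ISG15 ligase in mouse, was at -1.45, -1.59 and -1.69 after rHuEPO, against -2.27 and -2.25 after PBS and -1.92 untreated. Its arms were apart by a smaller margin, with a difference of 0.57 ± 0.18 (limma adjusted p = 0.830), which turned to -0.14 with normexp background correction.

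**Figure D2:**
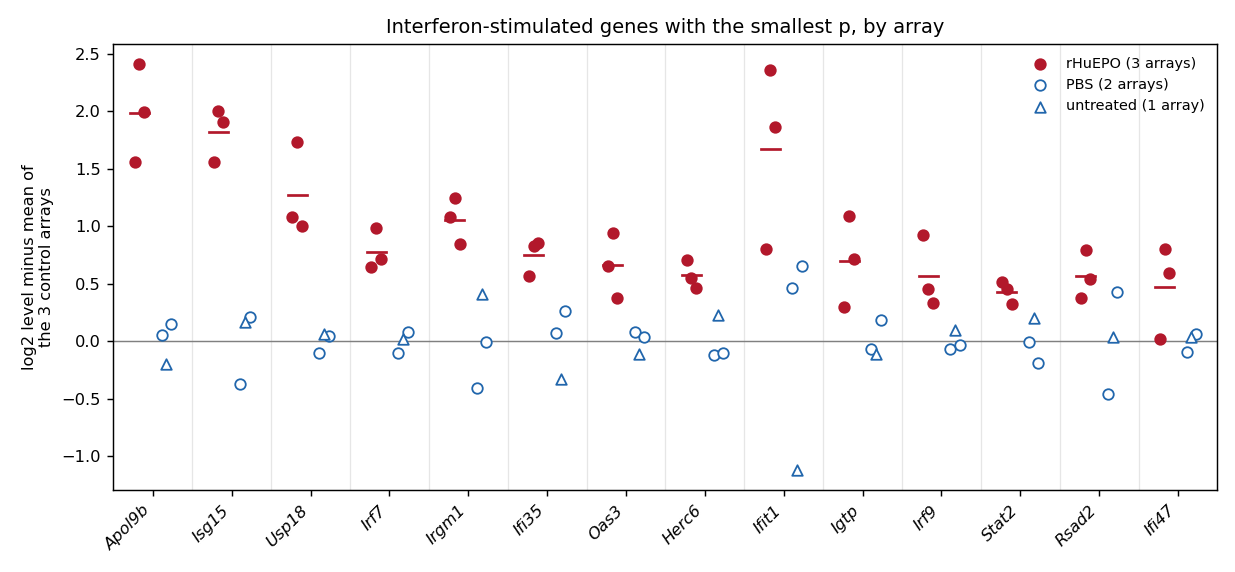
Log2 level minus the mean of the 3 control arrays, for the 14 members with the smallest unadjusted p, with rHuEPO arrays as filled circles and their mean as a bar, PBS arrays as open circles and the untreated array as a triangle. Rsad2 and Ifi47 are the 2 members here whose arms overlap.

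Transcription factors of the pathway lay higher in part. Irf7, the master regulator of further interferon production, was at 2.08, 2.42 and 2.15 in rHuEPO replicates 1, 2 and 3, against 1.34 and 1.52 in PBS replicates 1 and 2 and 1.46 in the untreated sample. The controls spanned a narrow range and every rHuEPO array lay above it, with a difference of 0.78 ± 0.17 (SE, 3 against 3 arrays; limma adjusted p = 0.515). Irf9, the DNA-binding subunit of ISGF3, was at 2.52, 2.06 and 1.93 after rHuEPO, against 1.53 and 1.57 after PBS and 1.70 untreated, also without overlap, and the difference was 0.57 ± 0.21 (limma adjusted p = 0.898). Stat2, another ISGF3 subunit, was at 1.56, 1.49 and 1.37 after rHuEPO, against 1.03 and 0.85 after PBS and 1.25 untreated. Its lowest rHuEPO array lay just above the untreated sample, and the difference was 0.43 ± 0.18 (limma adjusted p = 0.978).

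Ifi35, a leucine-zipper protein grouped with these factors, was at 2.85, 3.11 and 3.14 after rHuEPO, against 2.35 and 2.54 after PBS and 1.95 untreated. The arms did not overlap, the untreated sample was the lowest array, and the difference was 0.75 ± 0.21 (limma adjusted p = 0.722). Irf1, a factor that interferon gamma induces, had a difference of -0.16 ± 0.18. It was the 1 member of this role below 0, its other tested probe also lay below 0, and it turned to 0.21 with normexp.

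The oligoadenylate synthetases make a second messenger that activates RNase L, and the kinase PKR (Eif2ak2) halts translation when it meets double-stranded RNA. All 6 tested members of this role had differences above 0, from 0.39 to 0.76, with a median of 0.61. Oas3 was the 1 of them whose arms were apart, which held for 5.07% of all genes with rHuEPO higher. Its level was 2.32, 2.61 and 2.04 in rHuEPO replicates 1, 2 and 3. It was 1.74 and 1.69 in PBS replicates 1 and 2 and 1.55 in the untreated sample. The difference was 0.66 ± 0.20 (SE, 3 against 3 arrays; limma adjusted p = 0.799), and rHuEPO replicate 2 was again the highest array. The other 5 overlapped between arms, with differences of 0.76 ± 0.44 for Oas1a, 0.68 ± 0.46 for Oas2, 0.57 ± 0.30 for Oasl2, 0.43 ± 0.28 for Oasl1 and 0.39 ± 0.28 for Eif2ak2. Single arrays weighed on them: without rHuEPO replicate 2 they lay between 0.13 and 0.52 and the role's median was 0.28, and without the untreated sample they lay between 0.15 and 0.42 and the median was 0.39. Without PBS replicate 1 Oas1a was 1.17, and without rHuEPO replicate 1 Oas2 was 1.14. Oas1g was below the background flag throughout. Oas1a and Oas1g are close copies, and whether a probe of one also reads the other was not tested.

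IFIT proteins bind viral RNA that lacks a host-type cap. Ifit1 was at -0.94, 0.62 and 0.12 in rHuEPO replicates 1, 2 and 3, against -1.28 and -1.08 in PBS replicates 1 and 2 and -2.86 in the untreated sample. The rHuEPO arrays lay above the controls but spread widely, and the untreated sample was far below both PBS samples. The difference was 1.67 ± 0.56 (SE, 3 against 3 arrays; limma adjusted p = 0.856), with 1.92 on slide 1 and 1.55 on slide 2. Against the PBS arrays alone it was 1.12 ± 0.44, and with normexp the difference from all controls was 0.92.

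Rsad2 encodes viperin, which makes a chain-terminating nucleotide. Its level was 4.36, 4.77 and 4.52 after rHuEPO, against 3.52 and 4.41 after PBS and 4.02 untreated. PBS replicate 2 reached above the lowest rHuEPO array, so the arms overlapped, and the difference was 0.57 ± 0.26 (limma adjusted p = 1.00). The rest of the role lay nearer 0, with differences of 0.19 ± 0.51 for Ifit3, 0.14 ± 0.20 for Cmpk2, a nucleotide kinase that neighbours Rsad2, 0.01 ± 0.29 for Trim30a (-0.016 with quantile normalization) and -0.35 ± 0.35 for Samd9l, an antiviral and growth-restraining factor. Ifit3 has the near-identical copy Ifit3b, and the sharing of signal was not tested. Ifit2, left untested, read lower on average after rHuEPO, at -3.90, -4.03 and -5.72 after rHuEPO, against -1.002 and -4.68 after PBS and -3.29 untreated, with the arms overlapping and no rHuEPO array well above background. Ifi44 missed the background flag throughout.

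Apol9b, an apolipoprotein L family gene, had the largest difference of the 37 tested members. Its level was -1.06, -0.21 and -0.63 in rHuEPO replicates 1, 2 and 3, against -2.57 and -2.47 in PBS replicates 1 and 2 and -2.82 in the untreated sample. The controls lay within a narrow range and all rHuEPO arrays lay far above it. The difference was 1.99 ± 0.25 (SE, 3 against 3 arrays), a 3.97-fold difference (limma adjusted p = 0.0676), with 1.77 on slide 1 and 2.10 on slide 2. With slide as a block limma called it (adjusted p = 0.0396), and with normexp the difference shrank to 0.57 (limma adjusted p = 0.718). Apol9b has the near-identical copy Apol9a, and the 2 may share signal on this probe.

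The other membrane and mixed members also had differences above 0. Rtp4, a chaperone of receptors that binds RNA, was at 0.62 ± 0.35, and Xaf1, a proapoptotic zinc-finger gene, was at 0.49 ± 0.26. The arms of Xaf1 barely missed overlap, with the lowest rHuEPO array at 0.691 and the highest control at 0.687. Without the untreated sample the differences were 0.37 for Rtp4 and 0.25 for Xaf1, and without rHuEPO replicate 2 Rtp4 was 0.29. Ifitm3, which blocks the entry of viruses from endosomes, was at 0.33 ± 0.45, Bst2, the tether of budding virus, at 0.19 ± 0.17, and Ifi27l2a, a small membrane protein, at 0.10 ± 0.32. The SE of Ifitm3 and of Ifi27l2a exceeded the difference itself.

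Interferon-inducible GTPases attack vacuoles that hold pathogens and are driven mostly by interferon gamma. Irgm1, which protects host membranes, was at 1.64, 1.80 and 1.40 in rHuEPO replicates 1, 2 and 3, against 0.15 and 0.55 in PBS replicates 1 and 2 and 0.97 in the untreated sample. The arms were apart, though the 3 controls spread more than the 3 rHuEPO arrays. The difference was 1.06 ± 0.25 (SE, 3 against 3 arrays; limma adjusted p = 0.535), with 0.67 on slide 1 and 1.25 on slide 2. Igtp, a GTPase of the same family, was at 4.28, 5.07 and 4.69 after rHuEPO, against 3.91 and 4.16 after PBS and 3.87 untreated. The difference was 0.70 ± 0.24 (limma adjusted p = 0.856).

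Ifi47 was at 1.29, 2.08 and 1.87 after rHuEPO, against 1.18 and 1.34 after PBS and 1.31 untreated. Its rHuEPO replicate 1 lay within the control range, and the difference was 0.47 ± 0.23 (limma adjusted p = 1.00). The guanylate-binding proteins Gbp2 and Gbp3 had differences of 0.23 ± 0.36 and -0.20 ± 0.32, and Gbp3 turned to 0.0074 with normexp. Parp9, a partner of the ligase DTX3L in antiviral signalling, had a difference of 0.23 ± 0.17, which turned to -0.075 with normexp. Its arms barely missed overlap, at -0.871 in the lowest rHuEPO array and -0.889 in the highest control. Parp14, an ADP-ribosyltransferase, stood at 0.24 ± 0.30, which was 0.011 without the untreated sample, 0.058 without rHuEPO replicate 2, 0.39 without PBS replicate 1 and 0.49 without rHuEPO replicate 1.

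Of the 4 tested cytosolic sensors, 0 had arms fully apart, against 5.07% of all genes with rHuEPO higher and 5.32% with it lower. Ifih1, the sensor MDA5 of long double-stranded RNA, had a difference of 0.41 ± 0.25, and Zbp1, which senses Z-form nucleic acid, of 0.28 ± 0.44. Dhx58, the regulator LGP2, was at 0.10 ± 0.27, and Ddx58, the sensor RIG-I, at -0.15 ± 0.40. Ddx58 was the only one of 11 members with several tested probes whose probes differed in sign, from -0.29 to 0.13.

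The arrays did not contribute equally. Of the 37 members, rHuEPO replicate 2 lay above all 3 controls for 29, rHuEPO replicate 3 for 21 and rHuEPO replicate 1 for 16. The same held for 21.0%, 28.5% and 17.8% of all genes, listed for replicates 2, 3 and 1. Replicate 2 was the highest of the 6 arrays for 24 members, and the untreated sample the lowest for 18. The members' median deviation from each gene's mean was 0.0055, 0.57 and 0.17 in rHuEPO replicates 1, 2 and 3, against 0.0047 and -0.22 in the PBS samples and -0.42 in the untreated sample. The same arrays lay below all 3 controls for 0, 4 and 1 members in replicates 2, 3 and 1, against 19.8%, 22.3% and 27.6% of all genes. Without rHuEPO replicate 2 the members' median difference was 0.27, and 8 members lay higher at an unadjusted p under 0.05, against 1.44% of all genes in that fit. Without PBS replicate 1 the median was 0.53, with 10 members, against 1.97%. Single members moved more: 18 of the 37 differences moved by over 1.5 times without rHuEPO replicate 2 (17 of them toward 0 or past it), and 18 without the untreated sample (16 of them toward 0 or past it).

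**Figure D3:**
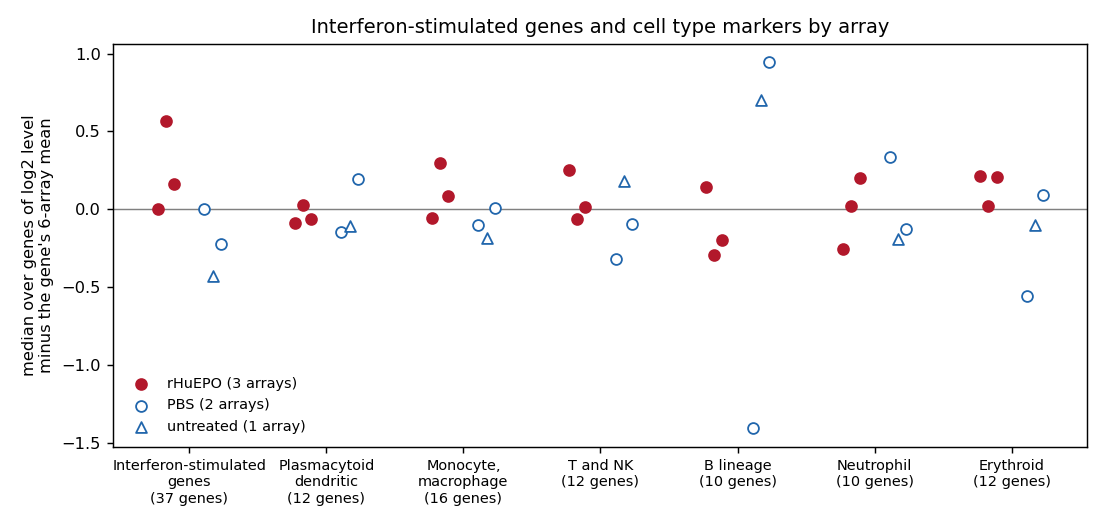
Median deviation, per array, from each gene's mean over the 6 arrays (log2), for the 37 interferon-stimulated genes and 6 cell marker lists, with the rHuEPO arrays left of the controls. The members' median is highest in rHuEPO replicate 2 and lowest in the untreated sample, and the B-lineage markers are lowest in PBS replicate 1.

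Each slide held both arms, so the difference was also read within slides. The members' median was 0.34 on slide 1, between rHuEPO replicate 1 and the untreated sample, and 0.47 on slide 2, between the other rHuEPO replicates and the PBS samples. Over all genes it was 0.0038 and -0.015. The kind of control changes with the slide, so the 2 cannot be told apart where slides are set side by side. With slide as a block limma called 1 member, Apol9b, among 9 genes that lay higher (0.0606%), and it called 0 lower (0%). At an unadjusted p under 0.05 that fit had 17 members higher, against 5.76% of all genes, and 0 lower, against 5.61%. With array weights limma called 2 members, Apol9b (adjusted p = 0.0110) and Isg15 (adjusted p = 0.00820), against 0.161% of all genes called higher.

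The PBS samples alone share the injection and the time with rHuEPO, so rHuEPO was also set against PBS alone, in a model with 3 groups. Limma called 0 members at an adjusted p under 0.05, against 0.0202% of genes called higher and 0% in the other direction. The difference was above 0 for 29 of 37 members, against 40.5% of all genes, and below 0 for 8, against 59.5%. At an unadjusted p under 0.05, 11 members lay higher, against 1.97%, and 0 lay lower, against 2.01%. Isg15 led with 1.91 ± 0.26 (SE, 3 against 2 arrays; limma adjusted p = 0.182), then Apol9b with 1.89 ± 0.28 (limma adjusted p = 0.249). Usp18 stood at 1.30 ± 0.28 and Irgm1 at 1.26 ± 0.23. The members' median was 0.37, against -0.057 over all genes, and with normexp the median over all genes moved to 0.14 and that of the members to 0.63.

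The untreated sample was then set against the PBS samples, with its spread assumed to be that of the other groups. Limma called 0 members and 0 genes in either direction (0%). At an unadjusted p under 0.05, 0 members lay higher, against 1.77% of all genes, and 2 lay lower, against 3.62%. These were Ifit1, at -1.68 ± 0.60, and Ifi27l2a, at -0.95 ± 0.35 (SE, 1 against 2 arrays). The difference was below 0 for 23 of 37 members, against 59.1% of all genes, and above 0 for 14, against 40.9%. All 6 synthetase and PKR genes and all 6 membrane and mixed genes lay below 0, which was 5 of 6 in each role with quantile normalization, and 3 of 6 and 5 of 6 with normexp. The members' median was -0.20, beside -0.11 over all genes. Median scaling put the 2 medians at -0.34 for the members and -0.24 for all genes, and normexp put them at 0.16 for the members and 0.036 for all genes. This comparison and rHuEPO against PBS share the PBS arrays.

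**Figure D4:**
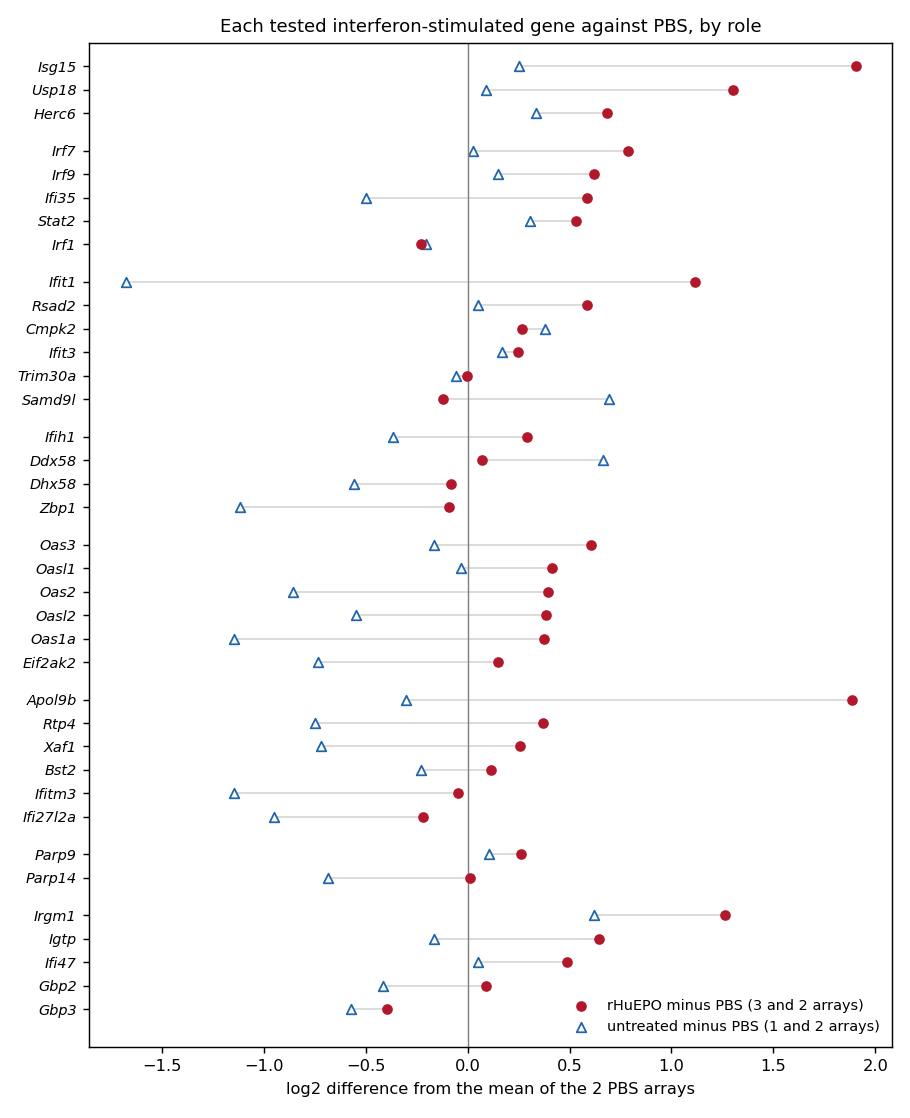
Log2 differences from the mean of the 2 PBS arrays for the 37 tested interferon-stimulated genes, with rHuEPO (3 arrays) and untreated (1 array) drawn apart. The difference is above 0 for 29 members after rHuEPO and for 14 in the untreated sample, and both sets of points share the PBS arrays.

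The interferon genes themselves were hardly measurable. Of 12 listed, 3 had no matched probe and 8 were too dim, among them Ifnb1, which encodes interferon beta and missed the background flag on all 6 arrays. Ifng, which encodes interferon gamma, was tested and had a difference of 0.08 ± 0.33 (SE, 3 against 3 arrays). The receptors and their nearest signalling genes centred on 0, with 7 of 14 above 0, against 47.7% of all genes. Their median was -0.013, and 0 had an unadjusted p under 0.05 in either direction, against 2.49% of all genes higher and 2.48% lower. Ifnar1 was at -0.03 ± 0.18, Ifnar2 at -0.17 ± 0.17 and the kinase gene Jak1 at 0.22 ± 0.19. The other tested probe of Jak1 gave 0.063.

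Genes that lead to interferon production, such as the endosomal receptor chaperone Unc93b1 (-0.35 ± 0.21) and the adaptor Myd88 (0.35 ± 0.21), split as 9 of 17 above 0. This was beside 47.7% of all genes, and 0 had an unadjusted p under 0.05, against 2.49% of all genes higher and 2.48% lower. Interferon-induced genes outside the 43 were above 0 in 25 of 34, against 47.7% of all genes, with a median of 0.11. At an unadjusted p under 0.05, 3 of them lay higher, against 2.49% of all genes, and 0 lay lower, against 2.48%. The GTPase gene Tgtp1 was the largest of these, at 3.14, 3.79 and 3.42 in rHuEPO replicates 1, 2 and 3, against 1.24 and 1.58 in PBS replicates 1 and 2 and 1.62 in the untreated sample. Its arms lay far apart, with a difference of 1.97 ± 0.22 (limma adjusted p = 0.0563), and its near-identical copy Tgtp2 may share the signal. Adar, the RNA-editing enzyme that marks self RNA, was at 0.59 ± 0.20, the nuclear body gene Daxx at 0.39 ± 0.16 and the GTPase gene Irgm2 at 0.59 ± 0.25. The other tested probe gave a smaller difference for Tgtp1, at 1.14, and for Adar, at 0.17. Against PBS alone, 20 of the 34 genes outside the 43 lay above 0, against 40.5% of all genes, with a median of 0.021.

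Genes of the interferon gamma class and of antigen processing were above 0 in 14 of 19, against 47.7% of all genes, with a median of 0.045. Tap2, a subunit of the peptide transporter for class I molecules, was the 1 that lay higher at an unadjusted p under 0.05, with 0.70 ± 0.30. That level was met by 2.49% of all genes higher, and 0 of the 19 lay lower, against 2.48%. Against PBS alone, 7 of the 19 genes lay above 0, against 40.5% of all genes, and their median was -0.082. None of the genes on these pathway lists passed the adjusted threshold. Their medians lay closer to that of all genes than the members' median did, and the difference between lists was not tested.

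The members were also split by the ISRE core in the promoter window. The median difference was 0.42 over the 18 tested members with a core, from -0.20 to 1.99, and 0.49 over the 11 tested members with a window and no core, from -0.35 to 0.78. Irf7 and Ifi35 were among those without a core in the window.

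Cell markers were read on the same arrays, since the members are used by many marrow cells. Monocyte and macrophage markers had a median difference of 0.35, 12 of 16 above 0, with summed linear levels of 430 to 449 after rHuEPO, against 394 to 585 in the controls. The gene Ly6c2 alone made up 76.5% to 82.7% of these sums, and its difference was -0.07 ± 0.21. Among the other markers the smallest p-values belonged to C1qa, a complement gene of resident macrophages, and Siglec1, a macrophage lectin that interferon also induces. Their differences were 0.52 ± 0.23 and 0.75 ± 0.36, and Siglec1 was well above background on 5 of 6 arrays. The lowest of the list was Cx3cr1, at -0.44 ± 0.64, and 4 of 16 markers lay below 0. Erythroid markers had a median of 0.34, 9 of 12 above 0, with sums of 2099 to 2459 after rHuEPO, against 2088 to 2392 in the controls, of which Hbb-bt and Hba-a1 together made up 76.8% to 85.4%. The smallest p-values on that list belonged to the transferrin receptor gene Tfrc at 0.97 ± 0.19 and Rhag at 0.87 ± 0.22. The part of either list in the members' differences was not tested.

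Markers of plasmacytoid dendritic cells, the strongest makers of type I interferon, were above 0 in 5 of 12, with a median of -0.0034 and sums of 55.5 to 61.4 after rHuEPO, against 40.6 to 84.3 in the controls. Tcf4, the factor that sets their identity, was at -0.47 ± 0.18, with every rHuEPO array below every control array. The next smallest p-values belonged to Runx2 at -0.33 ± 0.21, Klk1 at 0.40 ± 0.27 and Ccr9 at 0.10 ± 0.18, so these markers did not share a direction. Neutrophil markers were above 0 in 5 of 10, with sums of 1804 to 2361 after rHuEPO, against 1862 to 2439 in the controls, and T and NK markers in 9 of 12, with sums of 39.6 to 45.1 after rHuEPO, against 37.7 to 48.0 in the controls. B-lineage markers were above 0 in 2 of 10, with a median of -0.17. Their sums were 92.3 to 114 after rHuEPO, against 48.1 to 207 in the controls, with PBS replicate 1 at the low end. Against PBS alone, 8 of 10 B-lineage markers lay above 0, with a median of 0.13, and 1 of 10 neutrophil markers. That comparison had 9 of 16 monocyte and macrophage, 11 of 12 erythroid, 10 of 12 T and NK and 5 of 12 plasmacytoid markers above 0. The share of all genes above 0 was 47.7% against control and 40.5% against PBS. A marker was tested only when well above background on at least 3 of 6 arrays, which Pax5 of the B lineage met on 3. Whether cell composition moved the members was not tested.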

How the data were processed

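Marrow RNA carried the dye Cy3 on 1-colour Agilent arrays, per the labels' protocols. Spot intensity in the deposited scanner files came from Agilent Feature Extraction 10.7.3.1, background-subtracted in the processed signal, with other columns of flags, per the file headers. The authors' deposited value table holds log2 values. Set against the scanner values it equalled the log2 processed signal after scaling at the 75th percentile and centring of each probe (slopes 0.9991 to 1.001, median absolute differences up to 0.0136), which settles its scale, centring and direction. Its column medians were 0.117, 0.0111 and 0.0867 for rHuEPO, -0.0569 and -0.0976 for PBS and -0.103 for the untreated array.

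Levels were computed as the log2 processed signal less the 75th percentile of the array's gene spots, without the 1639 control spots and without outlier spots, and with spots of 1 probe averaged. Of 41157 probes 26670 (64.8%) matched 1 RefSeq symbol by accession. The others were grouped by their own accession, and those bright enough count among the 14861 genes tested. A gene was read from its brightest probe and tested when at least 3 of 6 arrays flagged that probe as well above background. Array percentiles lay between 221.4 and 264.3, no spot was saturated, and correlations between arrays ranged from 0.9600 to 0.9911. Differences were tested with limma 3.58.1 in R 4.3.3 (lmFit, eBayes, two-sided, Benjamini-Hochberg over all 14861 genes, threshold 0.05), and the test was tested on simulated data. The rHuEPO against control fit pools PBS and untreated samples, as the study's design does.

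The members and all gene lists were chosen with earlier results of these data known, and no list was tested as a set. Values in every array are given for the 14 members with the smallest unadjusted p, and from each other list up to 4 genes were taken by the same rule, with Ifnar1, Ifnar2, Ifnb1 and Ifng. A gene that the rule also picks is not reported. Alternatives were quantile and median scaling, normexp (offset 50, on median signals, because the files used here carry no mean signal), a dim-probe filter set to none or to all arrays, the deposited table, PBS as the only control, a trended robust prior, averaging a gene's probes, slide or replicate blocks, array weights and leaving out each array. Slide 2 alone was added after seeing the data. Promoter sequences are from RefSeq (GRCm38.p6), and the array design's coordinates and protein sequences were not used here.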

Additional observations from a re-analysis of the deposited data

How the results depend on the processing

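Over 19 alternatives, 666 of 703 recomputed member differences kept their direction and their side of the threshold, 3 came to pass it and 34 turned in sign. Part of this was fixed in advance. The trended robust prior, slide as a block and the filter on all arrays leave every member difference as it is, though not its p. PBS as the only control and leaving out the untreated array are the same fit, and both are counted. Keeping the side of the threshold mostly means staying uncalled. The turned values belong to 13 members, and 24 members kept their sign in every alternative. With normexp Herc6 became -0.14, Parp9 -0.075, Gbp3 0.0074 and Irf1 0.21. With PBS as the only control Ddx58 became 0.069, Dhx58 -0.084, Ifi27l2a -0.22, Ifitm3 -0.050, Trim30a -0.0043 and Zbp1 -0.090. The replicate block turned Ddx58 to 0.23 and Samd9l to 0.033, array weights Gbp3 to 0.082, quantile normalization Trim30a to -0.016, and slide 2 alone, chosen after seeing the data, Ifi27l2a to -0.056 and Trim30a to -0.0043. Leaving out 1 array moved Ddx58 between -0.53 and 0.069, Dhx58 between -0.084 and 0.35, Ifi27l2a between -0.22 and 0.32, Ifitm3 between -0.050 and 0.74, Trim30a between -0.25 and 0.30, Zbp1 between -0.090 and 0.66, Gbp3 between -0.39 and 0.099, Ifit3 between -0.35 and 0.67 and Gbp2 between -0.062 and 0.55. The cause was not tested.

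The count of members called in rHuEPO against control, 0 as reported, became 1 with slide as a block and 2 with array weights. The shares of all genes called higher in those fits were 0.0606% and 0.161%. In rHuEPO against PBS the count of members became 1 with array weights. The share of all genes called in that fit is not reported here, so this count cannot be read alone. The adjusted p of Apol9b by limma ranged from 0.0110 to 0.718 over these alternatives, and that of Isg15 from 0.00820 to 0.845. The count of all genes called, 10 as reported, became 1 with normexp, 1 without a filter on dim probes, 5 with a filter on all arrays, 3 with PBS as the only control, 26 with array weights, 3 with slide 2 alone and 1 to 6 when any 1 of the 6 arrays was left out. The replicate block left 1 gene and 0 members called. Same-numbered rHuEPO and PBS samples had deviations correlated at -0.0711 and -0.159. These values cannot show pairing, since the deviations of 2 PBS arrays from their mean mirror each other. The numbers were not taken as pairs. The median over all genes, -0.013 as reported, moved to 0.10 without the filter. Untreated against PBS has no value without its 1 untreated array.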
